A study of Homo sapiens with 9 samples.

Results

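DNA replication in SUIT2 cells, an established human pancreatic cancer cell line, was described from the transcripts of 46 genes that encode its machinery. The genes were chosen by symbol, as the parts of the origin recognition complex, the licensing factors, the replicative helicase, the polymerases, the sliding clamp and its loader, the single-strand binding protein and the enzymes that finish lagging-strand fragments. All 46 stood among the 59609 genes of the deposited table, and all 46 passed the filter on low counts that left 16964 genes for testing. RNA sequencing covered 9 libraries in 3 groups of 3. These were control cells, cells exposed to interferon beta (IFNβ, a type I interferon) at 100 U/mL for 6 h, and cells exposed to it at the same dose for 24 h. The labels name no duration for the controls, and interferon and hours since fresh medium cannot be told apart in a comparison with them. Nothing in the labels says that replicates were separate cultures, so the p-values measure a spread that may be technical.

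Replication begins with licensing, in which the origin recognition complex (ORC) together with CDC6 and CDT1 loads the ring of MCM2 to MCM7 onto DNA before S phase. The CDC7 kinase, CDC45 and the GINS complex then turn the loaded ring into the active helicase. Polymerase alpha with primase starts each strand, and polymerases epsilon and delta extend the leading and lagging strands on the PCNA clamp. Many of these genes are transcribed under E2F factors around the passage from G1 into S phase. Type I interferons are known to slow the proliferation of many cell types. The libraries are of bulk RNA, in which the number of cells that carry a transcript and its amount per cell cannot be told apart.

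The controls held 15101734 to 19632741 estimated counts, the 6 h libraries 16799278 to 37420457 and the 24 h libraries 25270387 to 40384407, so that depth was not even between groups. Levels are given as CPM, counts scaled to each library's total after correction by TMM factors, and differences on the log2 scale. The interferon-induced genes ISG15, MX1, IFIT1 and OAS1, taken as a check, were higher at both times. The 5 ductal epithelial markers (KRT19, KRT7, KRT8, KRT18 and EPCAM) were all expressed. Their summed level was 4874 to 4956 CPM over the controls, 5006 to 5308 CPM over the 6 h libraries and 5691 to 5831 CPM over the 24 h libraries. Of 5 leukocyte markers PTPRC and CD3E were at 0 in all libraries. The summed level of the list was 228 to 232 CPM over the controls, 233 to 246 CPM over the 6 h libraries and 341 to 365 CPM over the 24 h libraries, nearly all of it LYZ, the lysozyme gene (228 to 364 CPM). The 5 fibroblast and endothelial markers summed to 1.72 to 2.97 CPM, and the 5 acinar and endocrine markers, with CPA1 and INS at 0, to 0.127 to 0.673 CPM. At 24 h KRT19, KRT8, EPCAM and LYZ were called higher and KRT7 lower, and COL1A1, at most 0.713 CPM, was called higher. The part of these lists in the results on replication genes was not tested.

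At 24 h most replication genes were higher than in control, while at 6 h they were called about as often as all genes. A gene was called when its adjusted p was under 0.05 in edgeR's quasi-likelihood test over all genes. At 6 h 8 members were called higher and 6 lower, and the other 32 did not pass. These are 17.4% and 13.0% of the members, beside 17.5% of all genes tested called higher and 15.4% called lower, or 32.9% in any direction. The members' shares stood near those of all genes, and their median log2 fold change was 0.01, against -0.01 over all genes. At 24 h 36 members were called higher and 3 lower, and the other 7 did not pass. Over all genes 50% were called in any direction. The share of members called higher was 78.3%, where 24.7% of all genes were called higher, and 6.52% were called lower, where 25.3% of all genes were. The median of the members at 24 h was 0.37 on the log2 scale, against 0.00 over all genes.

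**Figure D1:**
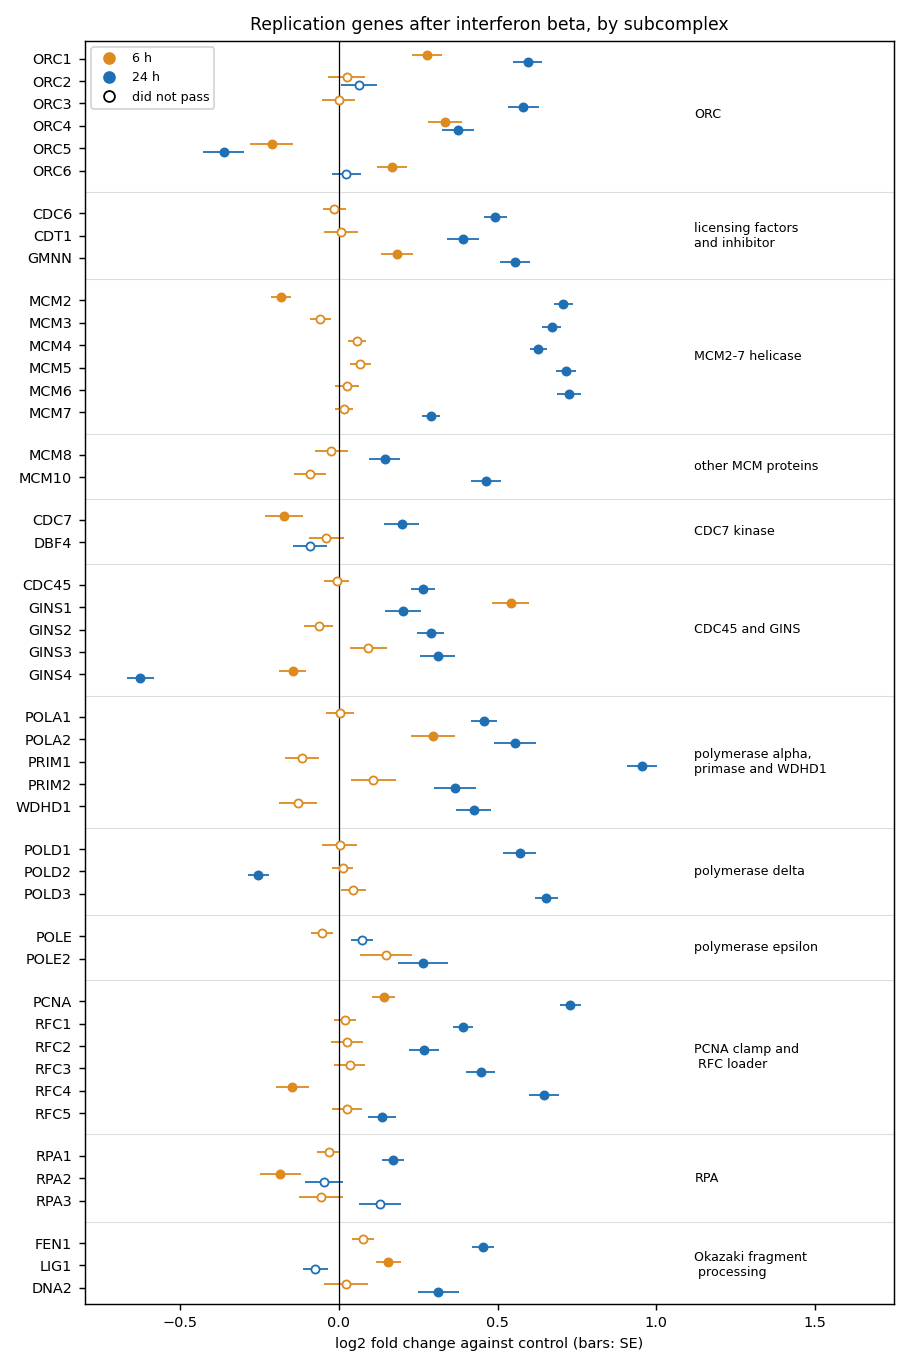
Log2 fold change against control (x axis, bars SE) of each of the 46 replication genes, by subcomplex, at 6 h (orange) and 24 h (blue), with open circles for genes that did not pass at an adjusted p of 0.05. The 24 h points lie to the right of 0 for 36 filled genes, from RFC5 at 0.14 to PRIM1 at 0.95, whereas the 6 h points scatter around 0, with GINS1 at 0.54 the farthest.

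The changes were of moderate size. At 24 h 11 of the 46 members were called and differed by at least 1.5-fold, beside 14.5% of all genes, PRIM1 by the most. At 6 h 0 of the 46 were, beside 8.82% of all genes. At 6 h the treated libraries lay above all controls for 12 members, beside 21.3% of all genes, and below them for 8, beside 20.8%, so that 20 of 46 were separate from control, beside 42.1%. At 24 h they lay above for 38, beside 29.9%, and below for 4, beside 30.1%, so that 42 of 46 were separate, beside 60%. Read over both times, 27 members did not pass at 6 h and were higher at 24 h, and 6 (ORC1, ORC4, GMNN, GINS1, POLA2 and PCNA) were higher at both. MCM2, CDC7 and RFC4 were called lower at 6 h and higher at 24 h, and ORC5 and GINS4 were called lower at both. ORC6 and LIG1 were called higher and RPA2 lower at 6 h alone, POLD2 was called lower at 24 h alone, and ORC2, DBF4, POLE and RPA3 passed at neither time. Both comparisons share the control libraries, and the share of all genes with each of these joint patterns was not counted.

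**Figure D2:**
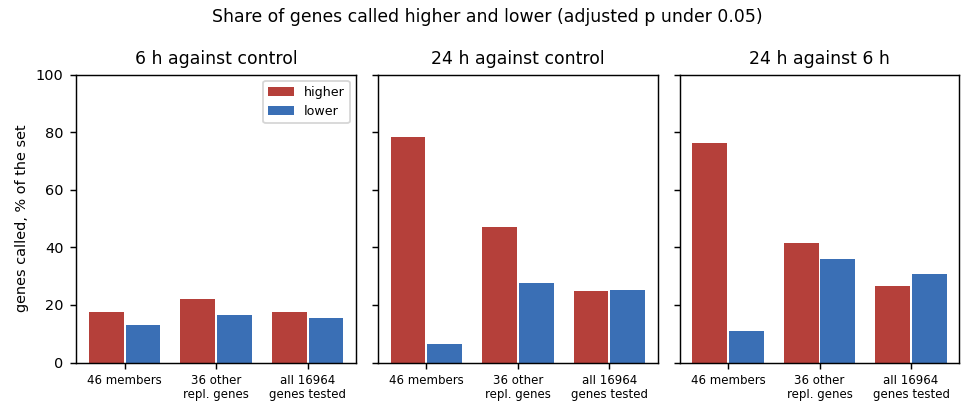
Share of genes (y axis, percent of each set) called higher (red) and lower (blue) in the 3 comparisons, for the 46 replication genes, for 36 other genes of the pathway and for all 16964 genes tested. The members' share called higher at 24 h, 78.3%, stands beside 24.7% of all genes, and at 6 h the 3 sets lie near each other.

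ORC, the complex of 6 subunits that marks origins, did not move as one. At 24 h ORC1, ORC3 and ORC4 were called higher and ORC5 lower, and at 6 h ORC1, ORC4 and ORC6 were called higher and ORC5 lower. ORC1, the ATPase subunit whose abundance varies through the cell cycle, read 26.6, 27.2 and 27.5 CPM in the control libraries, 34.1, 31.4 and 33.2 at 6 h and 41.3, 40.0 and 41.4 at 24 h. The 3 groups did not overlap, with 24 h the highest, and the log2 fold changes were 0.28 (SE 0.048) at 6 h and 0.59 (SE 0.045) at 24 h (adjusted p = 0.000322 and 2.8e-08). ORC4, a core subunit, stood at 23.7, 24.9 and 26.1 CPM in the control libraries, 32.6, 31.5 and 30.6 at 6 h and 33.0, 32.4 and 31.4 at 24 h. All treated libraries lay above all controls and the treated groups overlapped, with log2 fold changes of 0.33 (SE 0.052) and 0.38 (SE 0.050). ORC5, another core subunit, went the other way, at 24.0, 26.9 and 23.1 CPM in the control libraries, 20.4, 21.4 and 22.1 at 6 h and 19.8, 18.0 and 19.9 at 24 h. Each treated group lay below the controls, with -0.21 (SE 0.067) at 6 h (adjusted p = 0.0245) and -0.36 (SE 0.065) at 24 h (adjusted p = 0.00025), but at 24 h it stood at 0.07 in the authors' normalized table and was not called. The all-gene median at 24 h in that table was 0.37. ORC3 did not pass at 6 h, at 0.00, and was higher at 24 h by 0.58 (SE 0.048). ORC6, which binds the other subunits only loosely, was higher at 6 h by 0.17 (SE 0.047) and stood at 0.02 (SE 0.046) at 24 h without passing, and ORC2 passed at neither time (0.02 and 0.06). ORC4 overlaps ACVR2A by 432 bases and MBD5 by 595 bases on the opposite strand, genes that were higher at 24 h by 0.51 and 0.42. At 6 h MBD5 was also called higher, by 0.31 (adjusted p = 0.0152), and ACVR2A stood at -0.08 and did not pass. Whether counting used the strand is not stated in the sources at hand, and the part of such overlaps in these values was not tested. At 6 h the call of ORC5 was lost without control library 2, 6 h library 1 or 6 h library 2 (-0.21 to -0.13, adjusted p up to 0.184). That of ORC6 was lost without control library 1 (0.13, adjusted p = 0.0668).

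The factors that load the helicase and their inhibitor were all higher at 24 h. CDC6, which with ORC opens the ring onto DNA, read 83.5, 81.8 and 80.3 CPM in the control libraries, 84.0, 77.5 and 81.9 at 6 h and 115, 117 and 113 at 24 h. The 6 h libraries overlapped the controls, at -0.01 (SE 0.037), and the 24 h libraries lay above both groups, at 0.49 (SE 0.036, adjusted p = 1.63e-08). CDT1, which brings the ring to the origin, followed the same course, at 0.01 (SE 0.053) and 0.39 (SE 0.050). GMNN, the gene of geminin, which binds CDT1 and blocks another round of licensing, read 35.9, 37.4 and 38.1 CPM in the control libraries, 40.6, 44.6 and 41.2 at 6 h and 52.1, 56.1 and 55.5 at 24 h. Its groups ran in the order control, 6 h, 24 h with no overlap, with 0.18 (SE 0.051) at 6 h and 0.55 (SE 0.048) at 24 h. The 6 h call was lost without control library 1 (0.16, adjusted p = 0.0566).

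In the helicase ring all 6 genes, MCM2 to MCM7, were higher at 24 h, 5 of them by at least 1.5-fold. MCM2 (chromosome 3, 127598410 to 127622437 on hg38, the build of all gene positions given) read 116, 113 and 111 CPM in the control libraries, 102, 101 and 98.0 at 6 h and 184, 184 and 188 at 24 h. The 6 h libraries lay below all controls and the 24 h libraries above them, with log2 fold changes of -0.18 (SE 0.032) at 6 h (adjusted p = 0.000414) and 0.71 (SE 0.031) at 24 h (adjusted p = 4.09e-11). The lower call at 6 h held with each of the 9 libraries left out, but in the authors' normalized table MCM2 stood at -0.01 at 6 h and was not called (adjusted p = 0.973). The all-gene median at 6 h in that table was 0.13. MCM6 stood at 96.6, 88.6 and 89.2 CPM in the control libraries, 89.6, 96.4 and 92.8 at 6 h and 151, 152 and 150.3 at 24 h. Its 6 h libraries overlapped the controls, at 0.03 (SE 0.039), and its 24 h libraries lay close together and above all others, at 0.72 (SE 0.037).

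Of the other ring subunits, MCM5 was higher at 24 h by 0.72 (SE 0.032), MCM3 by 0.67 (SE 0.031) and MCM4 by 0.63 (SE 0.028). None of these passed at 6 h (0.07, -0.06 and 0.06). MCM7 was higher by 0.29 (SE 0.029), the smallest rise of the 6, with 277, 274 and 267 CPM in control, 276, 282 and 269 at 6 h and 332, 331 and 336 at 24 h. The summed level of the 6 transcripts was 1002 ± 11.4 CPM in control, 1005 ± 22.9 at 6 h and 1495 ± 9.11 at 24 h (mean ± SD, n = 3). Its mean differed from control by 49.2% at 24 h and 0.284% at 6 h. MCM10, which helps to activate the ring and to bring in polymerase alpha, read 41.1, 39.1 and 42.8 CPM in the control libraries, 36.9, 40.8 and 37.6 at 6 h and 55.1, 56.2 and 58.0 at 24 h. It overlapped control at 6 h, at -0.09 (SE 0.051), and lay above it at 24 h, at 0.46 (SE 0.047). MCM8, a relative that works with MCM9 in homologous recombination, was higher at 24 h by only 0.14 (SE 0.049, adjusted p = 0.0235). That call was lost without control library 1, control library 2, 24 h library 1 or 24 h library 2 (0.12 to 0.14, adjusted p up to 0.087).

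**Figure D3:**
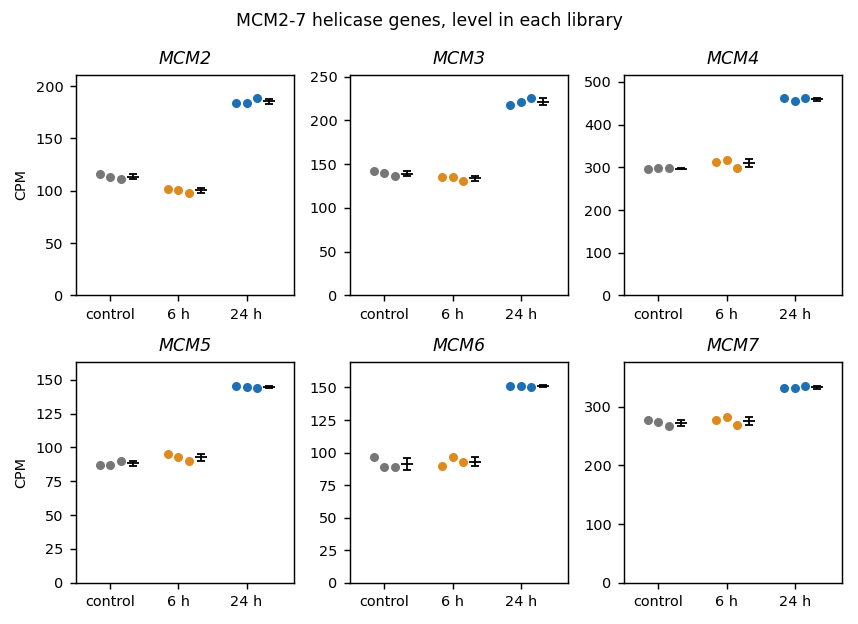
Level of MCM2 to MCM7 in each library (y axis, CPM with TMM factors, from 0), for control (grey), 6 h (orange) and 24 h (blue), with the mean and SD of the 3 libraries beside the points. In all 6 panels the 24 h libraries lie above the other 6, and for MCM2 the 6 h libraries (98.0 to 102 CPM) lie below the controls (111 to 116 CPM).

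Since many members moved together, their promoters were read for the letters of known elements, in RefSeq windows (GRCh38.p14) from 250 bases before to 50 bases after each start site. The table held 49 windows for 39 of the 46 members. The E2F element was searched on both strands as TTTCCCGC, TTTGGCGC, TTTCGCGC or TTTGCCGC. It stood in 20 of the 49 windows, 40.8%, against 3.31% of all 35116 windows. By gene it stood in the windows of 18 of 32 members higher at 24 h, 0 of 2 lower and 2 of 5 that did not pass. The interferon-stimulated response element, searched on both strands as TTTC, any 2 bases and TTTC again, stood in 1 of the 49 windows, 2.04%, against 3.57% of all windows, and in 0 of those of members higher at 24 h. The CCAAT box, searched as CCAAT on both strands, stood in 53.1% of the members' windows and 34.6% of all, and TTTGAA, the cell cycle homology element of late cell cycle genes, in 2.04% and 15.2%. Each window counts once, and matches may overlap. A match is a match of letters and not a bound site, and no match says only that these letters are not in the window.

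The windows shown are those of GINS1, with the largest called rise at 6 h, PRIM1, with the largest at 24 h, and ORC5, with the largest called fall at each time among members with a window. MCM2, called in opposite directions at both times, was added after its values were seen. Each runs 5′ to 3′ along the gene, and capitals mark matches to the E2F letters. MCM2 has 2 overlapping matches just after the start site, GINS1 has 1, also after it, and ORC5 and PRIM1 have none.
MCM2, chr3:127598161-127598460, forward strand: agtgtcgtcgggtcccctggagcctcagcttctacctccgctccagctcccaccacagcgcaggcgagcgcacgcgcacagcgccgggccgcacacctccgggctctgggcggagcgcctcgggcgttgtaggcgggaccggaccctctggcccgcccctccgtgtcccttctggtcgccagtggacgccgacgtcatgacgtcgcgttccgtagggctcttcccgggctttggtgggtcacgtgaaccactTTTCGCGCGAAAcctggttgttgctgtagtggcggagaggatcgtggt
GINS1, chr20:25407423-25407722, forward strand: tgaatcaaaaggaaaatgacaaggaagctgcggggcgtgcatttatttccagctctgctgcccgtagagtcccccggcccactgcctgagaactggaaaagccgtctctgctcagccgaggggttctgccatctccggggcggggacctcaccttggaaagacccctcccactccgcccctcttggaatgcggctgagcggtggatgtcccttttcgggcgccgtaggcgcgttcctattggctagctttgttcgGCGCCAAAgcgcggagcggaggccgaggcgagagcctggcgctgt
PRIM1, chr12:56752274-56752573, reverse strand: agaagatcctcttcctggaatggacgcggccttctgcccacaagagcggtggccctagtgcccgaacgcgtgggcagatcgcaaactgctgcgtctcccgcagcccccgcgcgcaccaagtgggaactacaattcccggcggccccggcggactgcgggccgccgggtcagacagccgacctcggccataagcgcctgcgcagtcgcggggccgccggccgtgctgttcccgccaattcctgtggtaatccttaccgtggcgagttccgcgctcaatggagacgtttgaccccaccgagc
ORC5, chr7:104207964-104208263, reverse strand: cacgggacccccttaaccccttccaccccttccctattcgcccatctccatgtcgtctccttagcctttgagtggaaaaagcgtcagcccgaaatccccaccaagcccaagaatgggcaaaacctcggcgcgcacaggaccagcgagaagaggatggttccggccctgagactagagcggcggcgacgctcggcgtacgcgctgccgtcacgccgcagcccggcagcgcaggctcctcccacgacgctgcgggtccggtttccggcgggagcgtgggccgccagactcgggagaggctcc

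Genes of helicase activation diverged from each other. CDC7, the kinase that phosphorylates the loaded ring, read 33.8, 32.8 and 35.4 CPM in the control libraries, 29.8, 27.7 and 32.2 at 6 h and 37.9, 40.4 and 38.8 at 24 h. Its 6 h libraries lay below and its 24 h libraries above all controls, at -0.17 (SE 0.059, adjusted p = 0.0358) and 0.20 (SE 0.055, adjusted p = 0.00737). The call at 6 h was lost without any 1 of the 3 control libraries, 6 h library 1 or 6 h library 2 (-0.19 to -0.12, adjusted p up to 0.151). DBF4, the subunit that activates CDC7, passed at neither time, at -0.04 (SE 0.055) and -0.09 (SE 0.053). It overlaps SLC25A40 by 146 bases on the opposite strand, a gene that was higher at 24 h by 0.21. CDC45, a fixed part of the active helicase, stood at -0.01 (SE 0.040) at 6 h and was higher at 24 h by 0.27 (SE 0.038).

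The 4 GINS genes, whose products form a complex, did not move together. GINS1 (chromosome 20, 25407673 to 25452629) read 23.1, 25.2 and 23.7 CPM in the control libraries, 32.4, 35.4 and 36.5 at 6 h and 28.7, 26.7 and 27.4 at 24 h. All 6 h libraries were above all 24 h libraries, and these above all controls. The log2 fold changes were 0.54 (SE 0.058) at 6 h (adjusted p = 2.38e-06), the largest of any member then, and 0.20 (SE 0.057) at 24 h (adjusted p = 0.00781). GINS2 and GINS3 did not pass at 6 h (-0.06 and 0.09) and were higher at 24 h by 0.29 (SE 0.042) and 0.31 (SE 0.055). GINS2 overlaps GSE1 by 8 bases on the opposite strand, a gene that was higher at 6 h by 0.41 and at 24 h by 0.32. GINS4 fell, at 58.3, 58.6 and 56.5 CPM in the control libraries, 49.97, 54.9 and 51.8 at 6 h and 36.5, 38.0 and 38.0 at 24 h. The 3 groups did not overlap, and the log2 fold changes were -0.14 (SE 0.043) at 6 h (adjusted p = 0.0165) and -0.63 (SE 0.042) at 24 h (adjusted p = 7.64e-09), the largest fall of any member. In the authors' normalized table it stood at -0.18 at 24 h, beside an all-gene median of 0.37, and was not called. The call of GINS4 at 6 h was lost without control library 1, control library 2 or 6 h library 1 (-0.14 to -0.11, adjusted p up to 0.0811). Summed over CDC45 and GINS the level was 203 ± 3.90 CPM in control, 207 ± 2.10 at 6 h and 212 ± 0.289 at 24 h (mean ± SD, n = 3), and its mean at 24 h differed from control by 4.61%.

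**Figure D4:**
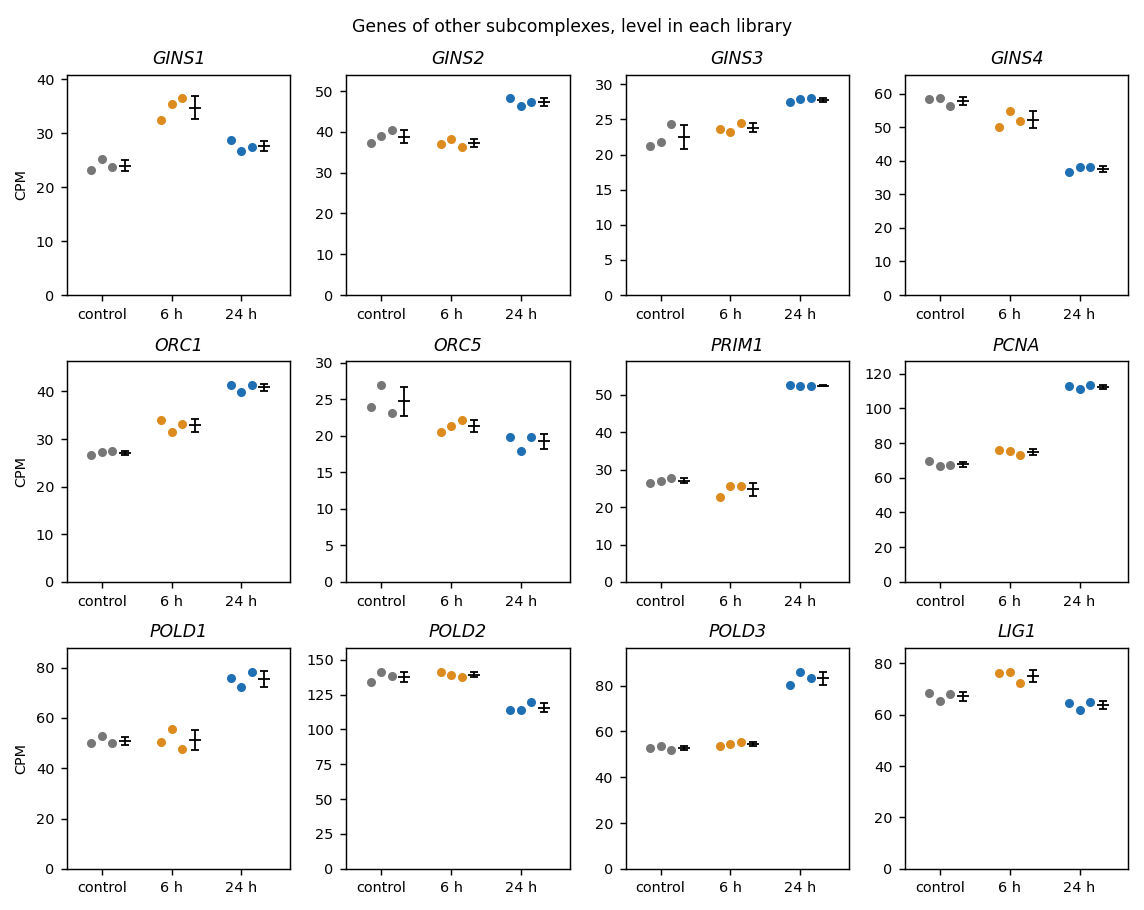
Level in each library (y axis, CPM with TMM factors, from 0) of 12 genes of other subcomplexes, for control (grey), 6 h (orange) and 24 h (blue), with the mean and SD of the 3 libraries beside the points. GINS1 is highest at 6 h (32.4 to 36.5 CPM), GINS4 is lowest at 24 h (36.5 to 38.0 CPM), and POLD2 is lower at 24 h in this scaling while POLD1 and POLD3 are higher.

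All 5 genes of polymerase alpha, primase and its link to the helicase were higher at 24 h. PRIM1, the catalytic primase subunit that makes the RNA primer (chromosome 12, 56731296 to 56752375), read 26.6, 26.9 and 27.8 CPM in the control libraries, 22.8, 25.8 and 25.7 at 6 h and 52.7, 52.4 and 52.3 at 24 h. The 24 h libraries lay close together and stood at 1.94 times control, or 0.95 (SE 0.047) on the log2 scale (adjusted p = 1.97e-10), the largest rise of any member. At 6 h all libraries lay below all controls, and the difference of -0.12 (SE 0.054) did not pass (adjusted p = 0.115). PRIM1 overlaps the more abundant NACA by 334 bases on the same strand. NACA stood at 831 ± 14.5 CPM in control and 769 ± 5.22 at 24 h (mean ± SD, n = 3), and was called lower with -0.11. POLA2, the regulatory subunit of polymerase alpha, read 22.9, 21.4 and 25.1 CPM in the control libraries, 31.5, 27.3 and 27.0 at 6 h and 33.4, 34.9 and 33.3 at 24 h. Its groups did not overlap, with 0.30 (SE 0.070) at 6 h and 0.55 (SE 0.066) at 24 h. It shares 43663 bases of the same strand with the gene AP000944.5, which passed at neither time (0.00 and 0.12), so the count of POLA2 is uncertain. POLA1, the catalytic subunit, stood at 0.01 at 6 h and was higher at 24 h by 0.46 (SE 0.041). PRIM2, the large primase subunit, was higher by 0.36 (SE 0.066) and WDHD1, which tethers polymerase alpha to the helicase, by 0.42 (SE 0.055). POLA1 overlaps the pseudogene EEF1B2P3, which fell at 24 h with -0.44.

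Polymerase delta, the lagging-strand enzyme, split between its subunits. POLD3, an accessory subunit, read 52.9, 53.6 and 52.0 CPM in the control libraries, 53.6, 54.3 and 55.4 at 6 h and 80.5, 86.0 and 83.3 at 24 h. Its 24 h libraries were above all others, with 0.05 (SE 0.040) at 6 h and 0.65 (SE 0.037) at 24 h (adjusted p = 1.01e-09). POLD1, the catalytic subunit, was likewise higher at 24 h only by these calls, at 0.57 (SE 0.052). POLD2, the subunit that joins them, read 134, 141 and 138 CPM in the control libraries, 141, 139 and 138 at 6 h and 114, 114 and 119.5 at 24 h. The 24 h libraries lay below all others, at 0.01 (SE 0.033) for 6 h and -0.25 (SE 0.033) for 24 h (adjusted p = 1.05e-05). In the authors' normalized table, however, the 24 h value was 0.18, beside an all-gene median of 0.37, and was not called. In polymerase epsilon, the leading-strand enzyme, POLE2, an accessory subunit, read 11.3, 12.0 and 13.2 CPM in the control libraries, 14.6, 14.1 and 12.4 at 6 h and 14.2, 15.2 and 14.6 at 24 h. The 24 h libraries were above the controls, at 0.26 (SE 0.078, adjusted p = 0.0108), and the call was lost without control library 1 (0.22, adjusted p = 0.0614). The catalytic POLE passed at neither time, at -0.05 (SE 0.035) and 0.07 (SE 0.034).

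PCNA, the clamp that holds polymerases on DNA (chromosome 20, 5114953 to 5126627), and all 5 genes of its loader RFC were higher at 24 h. PCNA read 69.5, 66.7 and 67.2 CPM in the control libraries, 76.2, 75.3 and 73.1 at 6 h and 113, 111 and 113 at 24 h. The 3 groups were in order with no overlap, with 0.14 (SE 0.035) at 6 h (adjusted p = 0.00561) and 0.73 (SE 0.033) at 24 h (adjusted p = 6.98e-11). RFC4, a small loader subunit, read 30.8, 32.9 and 34.9 CPM in the control libraries, 29.7, 30.1 and 29.2 at 6 h and 49.7, 53.0 and 51.6 at 24 h. Its 6 h libraries lay below and its 24 h libraries above the controls, with -0.15 (SE 0.053) at 6 h (adjusted p = 0.045) and 0.65 (SE 0.048) at 24 h. The 6 h call of RFC4 was lost with any 1 of the 9 libraries left out other than control library 1 (-0.16 to -0.10, adjusted p up to 0.23). RFC1, the large subunit, was higher at 24 h by 0.39 (SE 0.032), RFC3 by 0.45 (SE 0.046) and RFC2 by 0.27 (SE 0.047). None of these passed at 6 h (0.02, 0.03 and 0.02). RFC5 was higher at 24 h by 0.14 (SE 0.045, adjusted p = 0.0201), a call lost without control library 1, 24 h library 1 or 24 h library 3 (0.10 to 0.13, adjusted p up to 0.112). It overlaps WSB2 by 445 bases on the opposite strand, a gene that fell at 24 h with -0.74, and RFC4 overlaps EIF4A2 by 19 bases, which stood at -0.08.

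RPA, the trimer that coats single-stranded DNA, had 1 called gene of 3 at each time. RPA1, the large subunit, was higher at 24 h by 0.17 (SE 0.035, adjusted p = 0.000821). It overlaps SMYD4 by 934 bases on the opposite strand, a gene that was higher at 24 h by 0.52, and the part of this overlap was not tested. RPA2, the subunit phosphorylated under replication stress, read 20.3, 23.0 and 21.9 CPM in the control libraries, 18.3, 20.3 and 18.8 at 6 h and 20.4, 21.1 and 21.8 at 24 h. The 6 h libraries overlapped the controls. The lower call at 6 h, -0.18 (SE 0.064, adjusted p = 0.0381), was lost without control library 2, control library 3, 6 h library 1, 6 h library 3, 24 h library 1 or 24 h library 2 (-0.18 to -0.13, adjusted p up to 0.209). RPA2 stood at -0.05 (SE 0.060) at 24 h, and RPA3 passed at neither time, at -0.06 (SE 0.070) and 0.13 (SE 0.066). RPA3 shares 77898 bases with UMAD1, a gene on the opposite strand that also passed at neither time.

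Of the enzymes that finish lagging-strand fragments, FEN1, which cuts the displaced flap, read 84.9, 85.5 and 88.2 CPM in the control libraries, 92.5, 93.2 and 87.5 at 6 h and 117, 117 and 120.2 at 24 h. The 24 h libraries lay above all others, with 0.08 (SE 0.036) at 6 h and 0.45 (SE 0.035) at 24 h (adjusted p = 2.91e-08). DNA2, a nuclease and helicase for long flaps, stood at 0.02 (SE 0.069) and was higher at 24 h by 0.31 (SE 0.064). LIG1, the ligase that seals the nick, took another course, at 68.5, 65.2 and 68.1 CPM in the control libraries, 76.2, 76.7 and 72.3 at 6 h and 64.6, 61.8 and 64.9 at 24 h. The 6 h libraries were the highest, by 0.16 (SE 0.039, adjusted p = 0.00622), and at 24 h its libraries lay below the controls by a difference that did not pass, -0.07 (SE 0.039, adjusted p = 0.129). With library size only LIG1 stood at 0.02 at 6 h and was not called (adjusted p = 0.76). In the authors' normalized table it was called at neither time (0.32 and 0.36) and the 24 h libraries were on average above the 6 h libraries. All-gene medians in that table were 0.13 at 6 h and 0.37 at 24 h.

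The comparison of 24 h with 6 h gives the difference between both effects without the controls. With no duration named for the controls, length of exposure and hours since fresh medium cannot be told apart in this comparison either. In it 35 members were called higher and 5 lower, and the other 6 did not pass. These are 76.1% and 10.9%, beside 26.6% of all genes called higher and 30.6% called lower, or 57.2% in any direction. The 24 h libraries lay above all 6 h libraries for 36 members, beside 29.8% of all genes, and below them for 6, beside 32.4%, so that 42 were separate, beside 62.2%. Called with a difference of at least 1.5-fold were 8 of the 46, beside 18.8% of all genes. PRIM1 had the largest difference, 1.07 (SE 0.046, adjusted p = 2.33e-11), followed by MCM2 with 0.89 (SE 0.031, adjusted p = 1.72e-12) and RFC4 with 0.79 (SE 0.046, adjusted p = 9.18e-10). POLE and RPA3, not called against control, were higher here by 0.13 (SE 0.033) and 0.18 (SE 0.063). The members lower at 24 h than at 6 h were GINS4 with -0.48 (SE 0.041), GINS1 with -0.34 (SE 0.051), POLD2 with -0.27 (SE 0.032), LIG1 with -0.23 (SE 0.037) and ORC6 with -0.14 (SE 0.043), but none of these 5 was called in the authors' normalized table. There GINS4 stood at -0.20 and GINS1 at -0.06, and POLD2, LIG1 and ORC6 lay above 0, beside an all-gene median of 0.215. With library size only GINS4 was the one called, and GINS1 stood at -0.12 (adjusted p = 0.0517). The calls of RFC5, at 0.11 (SE 0.043), and RPA3 were lost without single libraries, those of control among them since all groups share 1 estimate of the spread. For RFC5 these were control libraries 2 and 3, 6 h library 1 and each 24 h library (0.07 to 0.12, adjusted p up to 0.187), and for RPA3 6 h library 1 and 24 h library 1 (0.12 to 0.14, adjusted p up to 0.117).

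A list of 36 other genes of the pathway, which like the members was written with earlier results of these data known, held checkpoint mediators, further polymerase and loader subunits, origin firing factors, topoisomerases and histone chaperones. At 6 h 8 were called higher and 6 lower, 22.2% and 16.7%, near the 17.5% and 15.4% of all genes, with a median log2 fold change of 0.02. At 24 h 17 were called higher and 10 lower, 47.2% and 27.8%, beside 24.7% and 25.3% of all genes, with a median of 0.08. DBF4B, another partner of CDC7, was at 28.9 ± 0.802 CPM in control, 52.8 ± 1.26 at 6 h and 24.6 ± 0.832 at 24 h (mean ± SD, n = 3), higher at 6 h by 0.87 (SE 0.046) and lower at 24 h with -0.23 (SE 0.048). CHAF1B, a subunit of the chaperone that deposits histones behind the fork, was higher by 0.54 (SE 0.058) at 6 h and 0.71 (SE 0.055) at 24 h. TOP1, which relieves supercoiling ahead of forks and transcription, was higher at 6 h by 0.53 (SE 0.034) and lower at 24 h with -0.15 (SE 0.034). TOP2A, the topoisomerase that separates sister chromosomes and peaks late in the cell cycle, fell at 24 h from 789 ± 2.28 to 458 ± 5.42 CPM, -0.79 (SE 0.025), and LRWD1, which binds ORC on chromatin, fell with -0.65 (SE 0.062).

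Fewer calls held under every alternative tried at 6 h, 2 of 14, than at 24 h, 33 of 39. The matching share over all genes was not counted. With library size only, which put the all-gene median at 6 h at -0.14, 3 members were called higher and 25 lower, beside 9.84% and 36.5% of all genes. In the authors' normalized table, with an all-gene median of 0.13, 2 were called higher and 0 lower, beside 9.52% and 1.24%, and MCM2 stood at -0.01 and GINS4 and RFC4 at 0.02. ORC4 and GINS1, both higher, were the 2 of the 14 calls at 6 h that held under all 21 alternatives tried. That table differs in both scaling and test, limma on log2 values with a pseudocount of 1, and the part of each in the calls was not tested. In it 0 members were lower at an unadjusted p under 0.05 also. Of the 6 h rises, ORC6, GMNN, POLA2, PCNA and LIG1 were called in neither of these settings, and ORC1 was called with library size only. At 24 h library size only gave 39 higher and 3 lower, beside 32.4% and 18.1% of all genes. The normalized table gave 40 and 0, beside 50.5% and 1.89%, with an all-gene median of 0.37 and a members' median of 0.78. For 24 h against 6 h the counts were 40 and 1 with library size only, beside 48.5% and 14.6%, and 34 and 0 in the normalized table, beside 28.7% and 5.75%. The all-gene medians there were 0.20 and 0.21.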

How the data were processed

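RNA of 9 samples was sequenced on an Illumina instrument, per the labels' protocols. Reads were handled with STAR 2.7.8a and Partek on hg38, per the submitters' processing notes. For the annotation release, counting and strand setting, the sources used here give nothing. The authors deposited estimated counts per gene, of which 80.0% of values are whole to within 1e-06, and a TMM-normalized signal table. The latter was checked to be the count plus 0.0001, times 1 multiplier per library. The design had assumed counts, and the estimates were rounded to whole numbers for the count tests. Of the 46 members 17 had values that departed from a whole number by over 0.1, and 10 overlap a gene with at least 10% of their count.

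The main test was edgeR's quasi-likelihood test (edgeR 4.0.16 in R 4.3.3) on all 9 libraries in 1 fit, with TMM factors and 6 residual degrees of freedom. Genes needed a count of 10 in enough libraries and 15 in total. Benjamini-Hochberg adjustment ran over 16964 genes, and 0.05 was the threshold. Levels are CPM with TMM factors, save those of the marker lists, which are scaled to the library total alone. They are not corrected for gene length, so levels are not compared between genes. An SE is the size of the log2 fold change over the root of its F statistic. The biological coefficient of variation was 0.0392. No 2 replicates were identical, and between replicates the mean chi-square over genes was 1.59 to 5.58.

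Members, subcomplexes and lists were chosen with earlier results of these data known. All members are named. Values per library are given for the 3 largest called changes per comparison and direction, the largest called change of each subcomplex, and PCNA, MCM2 and CDC6. LIG1 and MCM7 were added after their values were seen. Of the other list the 3 largest called changes against control are named. The alternatives were DESeq2 1.42.0, limma-voom (limma 3.58.1), other scalings (median-of-ratios, library size only), other filters (none, a count of 50), fits of 2 groups, a block for replicate numbers, leaving out each library, limma on the normalized table on the log2 scale (pseudocounts of 1 and 0.1), a threshold of 0.01, and thinning to 15101664 counts. On simulated counts for 24 h against control (16416 genes, 50 per fold) the test called 58.0% of genes changed 1.25-fold, 90.0% at 1.5-fold and 100% at 2-fold, none with the wrong sign. Only well-counted genes were changed there, up and down in equal number, and 9 unchanged genes were called. In the data 50% of all genes were called at 24 h, so these shares need not hold for them. Promoter windows are RefSeq's on GRCh38.p14. Gene coordinates are those of the deposited tables. Tables and plots were made in python 3.11.15 (pandas 2.3.3, matplotlib 3.10.9, numpy 2.4.6).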

Additional observations from a re-analysis of the deposited data

Results flagged for a closer look

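The effect against control differed between 24 h and 6 h for 40 of 46 members by the test of 24 h against 6 h (edgeR, adjusted p under 0.05), beside 57.2% of all genes. The values that follow are the 24 h effect minus the 6 h effect on the log2 scale, and no explanation was weighed. For ORC the difference was ORC1 0.32, ORC3 0.58 and ORC6 -0.14. For licensing the difference was CDC6 0.51, CDT1 0.38 and GMNN 0.37. For the helicase ring the difference was MCM2 0.89, MCM3 0.73, MCM4 0.57, MCM5 0.65, MCM6 0.70 and MCM7 0.27. For the other MCM proteins the difference was MCM8 0.17 and MCM10 0.55. For the kinase the difference was CDC7 0.37. For CDC45 and GINS the difference was CDC45 0.27, GINS1 -0.34, GINS2 0.35, GINS3 0.22 and GINS4 -0.48. For polymerase alpha and primase the difference was POLA1 0.45, POLA2 0.26, PRIM1 1.07, PRIM2 0.26 and WDHD1 0.55. For polymerase delta the difference was POLD1 0.57, POLD2 -0.27 and POLD3 0.61. For polymerase epsilon the difference was POLE 0.13. For clamp and loader the difference was PCNA 0.59, RFC1 0.37, RFC2 0.24, RFC3 0.41, RFC4 0.79 and RFC5 0.11. For RPA the difference was RPA1 0.20 and RPA3 0.18. For fragment processing the difference was FEN1 0.38, LIG1 -0.23 and DNA2 0.29. MCM2, CDC7 and RFC4 were called in opposite directions at both times, lower at 6 h and higher at 24 h. Each of these lower calls was lost under some alternative. In the authors' normalized table MCM2 stood at -0.01, CDC7 at -0.02 and RFC4 at 0.02 at 6 h, beside an all-gene median of 0.13, none called.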

How the results depend on the processing

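Over 21 alternatives, the call held under every one for 33 of 36 members higher at 24 h and for 33 of 35 higher at 24 h against 6 h, but for only 2 of 8 higher at 6 h (ORC4 and GINS1). It held under every one for 0 of 6 lower at 6 h, 0 of 3 lower at 24 h and 0 of 5 lower at 24 h against 6 h, though leaving out single libraries ended 0 of the last 8. How many of the calls over all genes held was not counted. The number lower at 6 h (6) was 1 with DESeq2 (beside 11.7% of all genes), 3 with 2 groups per fit (13.8%), 3 without the low-count filter (7.02%), 1 at a threshold of 0.01 (9.7%), 25 with library size only (36.5%), and 1 to 5 with each library left out (1 without control library 2 or 6 h library 1, 3 without control library 3 or 6 h library 2). The number higher at 6 h (8) was 3 with library size only (9.84%), and 6 to 12 with each library left out. Over the fits with a library left out, 15% to 17.2% of all genes were called higher at 6 h and 11.8% to 14.8% lower. In the normalized table, with either pseudocount, 2 members were higher and 0 lower at 6 h, 0 were lower at 24 h and 0 lower at 24 h against 6 h (limma, with 0 at an unadjusted p under 0.05 in each), and for the last the count with library size only was 1. Of all genes, 9.52% and 9.56% were higher and 1.24% and 1.37% lower at 6 h in that table, with pseudocounts of 1 and 0.1. Lower at 24 h were 1.89% and 1.88%. Lower at 24 h against 6 h were 5.75% and 5.55%, and 14.6% with library size only.

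These members turned in sign where a call was made under 1 of the settings. At 6 h with library size only, the log2 fold changes were -0.14 for ORC3, -0.0825 for MCM4, -0.11 for MCM6, -0.12 for MCM7, -0.13 for POLA1, -0.13 for POLD2 and -0.12 for RFC1, all called. At 24 h against 6 h with library size only, ORC6 stood at 0.0722 and DBF4 at 0.17, the latter called. In the normalized table, with pseudocounts of 0.1 and 1, GINS4 stood at 0.0194 and 0.0195 and RFC4 at 0.0222 and 0.022 at 6 h, ORC5 at 0.0782 and 0.0748 and POLD2 at 0.19 and 0.18 at 24 h, and ORC6 at 0.13 and 0.13, POLD2 at 0.0058 and 0.0056 and LIG1 at 0.0373 and 0.0367 at 24 h against 6 h, none called. RPA2 at 24 h stood at 0.40 with a pseudocount of 0.1 (adjusted p = 0.0487). The all-gene medians moved too. With library size only they were -0.14 at 6 h and 0.20 at 24 h against 6 h. In the normalized table with a pseudocount of 0.1 they were 0.16 at 6 h and 0.44 at 24 h. For 24 h against 6 h that table gave 0.25. In the main test they were -0.01, 0.00 and -0.02 for 6 h, 24 h and 24 h against 6 h. Each member listed here lay on the same side of the all-gene median as in the main test. The cause was not tested.

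Deviations from the group means correlated at -0.0588 to 0.0214 for libraries of equal replicate number and -0.0277 to 0.0712 for others. These correlations cannot tell whether equal numbers shared a day or culture, which the labels do not say. With the replicate block the counts were 8 higher and 6 lower at 6 h (beside 16.3% and 14.1% of all genes), 36 and 3 at 24 h (23.7% and 24.2%), and 36 and 5 at 24 h against 6 h (25.6% and 29.8%), where RPA2 was called higher in addition. With all libraries thinned to the smallest total 8 were higher and 4 lower at 6 h (17.1% and 14.7%), and 34 and 3 at 24 h (24% and 24.1%).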
